A study of Arabidopsis thaliana with 5 samples.

Results

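The 100 genes described here lay on the low Mg side of Arabidopsis thaliana roots at 4 d and on the high Mg side at 7 d. They were chosen from the deposited FPKM values, which are fragments divided by transcript length and by library size, of 4 libraries. A member reaches 5 FPKM in low or high Mg on either day, has a log2 ratio of low to high Mg of 1 or more at 4 d, and one of -1 or less at 7 d. Each ratio was taken after adding 1 FPKM to both values. Of 16678 nuclear genes that could be compared, 600 (3.6%) met the 4-d condition and 561 (3.36%) the 7-d condition. The 100 that met both are 0.6% of the genes compared, 16.7% of the 4-d genes and 17.8% of the 7-d genes. Of the members, 71 are protein-coding genes with at least 500 nt of exon, and 29 are shorter or non-coding. Because these values chose the members, their ratios of low to high Mg are a description and carry no test.

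The study set roots with little Mg beside roots with much Mg and concerns the development of root hairs. Plants of Col-1, as the labels name the line, were grown for 5 weeks, and total RNA of the roots was sequenced. The groups were low Mg (0.5 µM) and high Mg (10 mM) after 4 d and after 7 d of treatment, and a control of 4 d whose Mg level is not in the labels. Each group is 1 library, so no value has a replicate error and every difference is one between single libraries. How many plants went into a library is not in the labels, and in whole roots fewer cells of a type and less RNA per cell cannot be told apart.

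Estimated library sizes were 12.7 and 11.8 M fragments for low and high Mg at 4 d and 10.7 M for the control. At 7 d they were 6.59 M for low Mg and 10.9 M for high Mg, so that the library in which the members are low at 7 d is also the shallowest. Root markers were present in all 5 libraries, with the endodermal gene CASP1 at 175 to 370.2 FPKM. Of 8 photosynthesis genes of the shoot, the summed level was 11.1 FPKM in low Mg and 29.6 FPKM in high Mg at 7 d, and 12.5 to 16.6 FPKM in the 4-d libraries. PSBO1, a subunit of photosystem II, had 5.43 FPKM in low Mg and 17.7 FPKM in high Mg at 7 d, and LHCB2.1 was at or below 0.171 FPKM in every library. The part of these levels in the results was not tested. A 102-nt locus, AT2G01021, held 57.5% to 82.3% of the summed FPKM at 4 d and 15.6% to 18.5% at 7 d. When every library is rescaled to the same nuclear sum, the median ratio of low to high Mg over all genes shifts by -0.65 (log2) at 4 d and by -0.07 at 7 d. All 100 members kept a ratio above 0 at 4 d and below 0 at 7 d under that rescaling. The limit of 1 in the rule is larger than these shifts, so this outcome was fixed by the rule. Only 35 of the 100 still met the rule itself after the rescaling.

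Salicylate is a defence hormone that plants make from chorismate in the plastid, largely through isochorismate synthase. Its signal passes through NPR1, a coactivator that binds TGA transcription factors, and WRKY factors, which bind W-box sequences in promoters, both relay and restrain it. Several of the best known members belong to this pathway or to its feedback.

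The synthesis gene ICS1 (EDS16 in the annotation, AT1G74710, TAIR10.1 chromosome 1, 28070295 to 28074177), which encodes isochorismate synthase, stood at 19.8 FPKM in low Mg and 7.22 FPKM in high Mg at 4 d. At 7 d it stood at 4.34 FPKM in low Mg and 11.2 FPKM in high Mg, and the control held 10.6 FPKM. Its order therefore turned between the days, with the control between the Mg levels of 4 d. FMO1 (AT1G19250, chromosome 1, 6650476 to 6653195), which makes the immune signal N-hydroxypipecolic acid, had 40.4 and 13.2 FPKM in low and high Mg at 4 d, 57.2 FPKM in the control, and 7.90 and 18.0 FPKM in low and high Mg at 7 d. Here the control was the highest library. DLO1 (AT4G10500, chromosome 4, 6491017 to 6492578), an oxygenase that hydroxylates salicylate and so removes it, had 77.2 and 11.7 FPKM in low and high Mg at 4 d, 58.8 FPKM in the control, and 8.95 and 40.2 FPKM in low and high Mg at 7 d. DLO1 was named after its values were seen. It crossed by log2 2.62 at 4 d and -2.05 at 7 d, and is 1 of 5 coding members of at least 500 nt that were 4-fold apart on both days, with AT2G30670, AT5G52690, AT1G52120 and AT1G52130.

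All 3 genes annotated as NIM1-interacting that could be compared are members, where 0.6% of all genes compared are. NIMIN1 and NIMIN-3 passed the filter of 5 FPKM only in libraries where the rule needs a high value, so this share is a description only. This annotation was singled out after the values were seen. The NIMIN proteins bind NPR1, and NIMIN1 is known to restrain its activity. NIMIN-2 (AT3G25882, chromosome 3, 9470357 to 9471039) had 23.5 and 8.41 FPKM in low and high Mg at 4 d, 14.6 FPKM in the control, and 4.19 and 22.5 FPKM in low and high Mg at 7 d. NIMIN-3 (AT1G09415) had 11.1 and 4.89 FPKM in low and high Mg at 4 d, 9.18 FPKM in the control, and 1.67 and 5.61 FPKM in low and high Mg at 7 d. NIMIN1 (AT1G02450) lay lower, at 7.86 and 1.75 FPKM in low and high Mg at 4 d, 3.71 FPKM in the control, and 0.373 and 3.19 FPKM in low and high Mg at 7 d. The lowest NIMIN1 value stood for about 1.53 estimated fragments and the lowest NIMIN-2 value for about 18.8, so the 7-d ratio of NIMIN1 has little depth behind it. In all 3 the control lay between low and high Mg of 4 d.

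WRKY51 (AT5G64810) and WRKY62 (AT5G01900) are the members among 17 measured defence WRKY genes. WRKY51, which takes part in the crosstalk of salicylate and jasmonate, had 82.3 and 31.4 FPKM in low and high Mg at 4 d, 41.2 FPKM in the control, and 19.1 and 39.5 FPKM in low and high Mg at 7 d. WRKY62, a repressor of basal defence, had 8.06 and 3.35 FPKM in low and high Mg at 4 d, 3.68 FPKM in the control, and 4.07 and 15.9 FPKM in low and high Mg at 7 d. For WRKY62 the 7-d value in high Mg was thus the highest of the 5, while for WRKY51 it was low Mg at 4 d. PLA2A (AT2G26560), a lipid acyl hydrolase induced in defence, had 40.3 and 6.10 FPKM in low and high Mg at 4 d, 47.3 FPKM in the control, and 8.27 and 18.24 FPKM in low and high Mg at 7 d.

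Promoters of 4 members of the salicylate group are shown because they hold motifs of the factors named above. Each runs from 250 bases before to 50 bases after the annotated start in TAIR10.1, read 5′ to 3′ on the gene's strand. Capitals mark the W-box core TTGAC, or its complement GTCAA, and the palindrome TGACGTCA, which contains the TGACG core of as-1 elements bound by TGA factors.
NIMIN-2, chr3:9470990-9471289, minus strand: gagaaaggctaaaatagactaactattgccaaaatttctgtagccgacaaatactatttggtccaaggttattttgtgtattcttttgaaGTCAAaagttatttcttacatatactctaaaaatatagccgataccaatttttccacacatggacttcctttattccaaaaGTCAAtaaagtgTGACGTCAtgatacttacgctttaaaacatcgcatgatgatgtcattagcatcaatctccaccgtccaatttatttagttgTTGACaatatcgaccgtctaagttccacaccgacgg
DLO1, chr4:6490767-6491066, plus strand: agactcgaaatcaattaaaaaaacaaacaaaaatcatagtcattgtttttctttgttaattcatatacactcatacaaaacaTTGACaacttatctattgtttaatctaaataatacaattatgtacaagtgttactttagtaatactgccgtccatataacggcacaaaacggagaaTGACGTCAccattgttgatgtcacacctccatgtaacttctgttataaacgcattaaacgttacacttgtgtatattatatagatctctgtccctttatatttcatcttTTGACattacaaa
WRKY51, chr5:25907997-25908296, plus strand: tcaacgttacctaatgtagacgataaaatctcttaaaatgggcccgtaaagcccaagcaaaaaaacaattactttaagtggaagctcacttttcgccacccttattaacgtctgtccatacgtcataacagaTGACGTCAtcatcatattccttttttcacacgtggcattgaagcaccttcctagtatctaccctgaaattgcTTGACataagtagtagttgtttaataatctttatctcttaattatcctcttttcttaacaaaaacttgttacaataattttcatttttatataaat
WRKY62, chr5:352046-352345, minus strand: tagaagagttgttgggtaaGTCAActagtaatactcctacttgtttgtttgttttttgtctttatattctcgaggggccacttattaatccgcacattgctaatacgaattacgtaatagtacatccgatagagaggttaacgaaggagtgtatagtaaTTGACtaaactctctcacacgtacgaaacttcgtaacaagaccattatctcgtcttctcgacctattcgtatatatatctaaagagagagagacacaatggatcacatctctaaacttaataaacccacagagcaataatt
NIMIN-2 holds 3 W-box cores and DLO1 and WRKY62 hold 2 each, while WRKY51 holds 1.

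**Figure D1:**
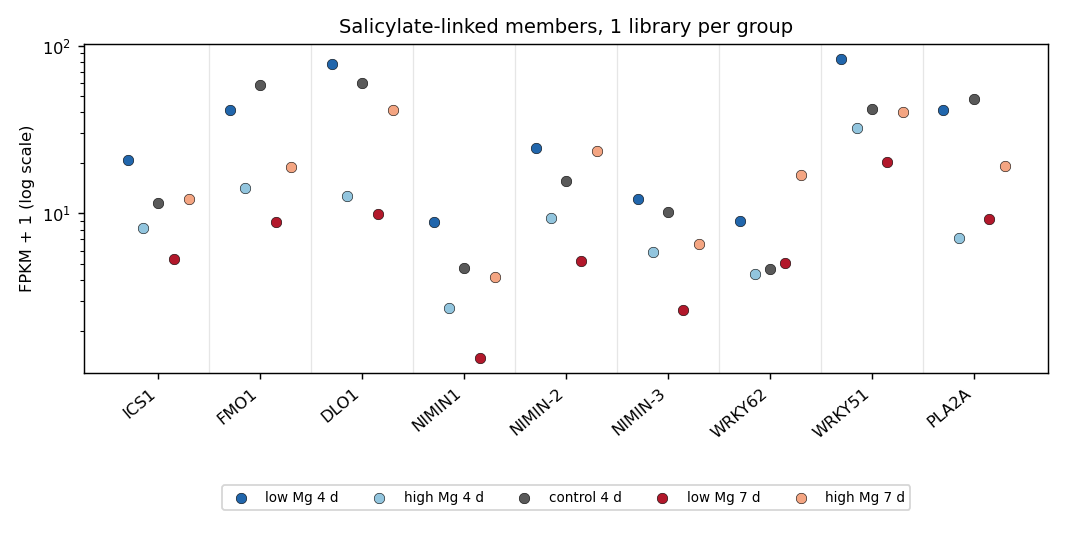
FPKM plus 1, on a log scale, of 9 members linked to salicylate or to defence in the 5 libraries. Each point is 1 library, with no error. ICS1, FMO1 and NIMIN1 are on the salicylate list, WRKY51 and WRKY62 on the list of defence WRKY genes, and the others on neither. The rule chose all 9 genes for low Mg above high Mg at 4 d and below it at 7 d. The control ranges from near high Mg (WRKY62) to above low Mg (FMO1, PLA2A).

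Few genes of the surrounding pathways met both conditions, though many leaned the same way. For the counts below, 3.6% of all genes compared were 2-fold higher in low Mg at 4 d and 3.36% were 2-fold lower at 7 d. The salicylate list held 13 measured genes, of which 8 were 2-fold higher in low Mg at 4 d and 3 were 2-fold lower at 7 d, and these 3 are the members ICS1, FMO1 and NIMIN1. Its medians were 1.34 at 4 d and -0.84 at 7 d, against -0.02 and 0.00 over all genes compared. In 11 of the 13 the ratio was above 0 at 4 d and below 0 at 7 d, a pattern of signs seen in 23.9% of all genes compared. The exceptions were EDS5, at -0.03 at 4 d, and ALD1, at 0.30 at 7 d. PR1, PR2 and PR5 of this list stayed below 5 FPKM in every Mg library and were not measured. PR1 was listed at 0 in all 5 libraries and PR5 at 0 in every Mg library. PR2 was at or below 0.147 FPKM in the Mg libraries and at 5.53 FPKM in the control. Just short of the 7-d limit were the immune regulator SARD1, at 2.14 and -0.84, and PBS3, which conjugates isochorismate, at 2.31 and -0.84. Of the 17 WRKY genes, 12 were 2-fold higher in low Mg at 4 d and 4 were 2-fold lower at 7 d, with medians of 1.32 and -0.38. Their signs were those of the members in 13 of 17. The members were chosen from the same ratios, so these counts are no separate evidence.

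Other defence lists shared the 4-d side more than the 7-d side. Among all genes compared, 3.6% were 2-fold higher at 4 d and 3.36% 2-fold lower at 7 d, and a 7-d count of 1 is a single gene. Camalexin and indole glucosinolate genes had 8 of 16 measured genes 2-fold higher in low Mg at 4 d and 1 of 16 2-fold lower at 7 d, the glutathione transferase gene GSTF6. Genes of pattern-triggered immunity had 5 of 10 higher at 4 d and 1 of 10 lower at 7 d, with no gene in both counts. Ethylene response factors had 7 of 9 higher in low Mg at 4 d, but 0 of 9 lower at 7 d and a 7-d median of 0.57. In the 23 lists as a whole 7 members were found, and 93 members are on no list. Touch and calmodulin-like genes had 5 of 10 higher at 4 d and 2 of 10 lower at 7 d, and CML38 is the member among them.

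No member came from the other lists. The shares over all genes compared, 3.6% higher at 4 d and 3.36% lower at 7 d, stand beside these counts too. Counted as 2-fold higher in low Mg at 4 d, cold and zinc finger factors had 4 of 7, tau glutathione transferases and oxidative stress genes 5 of 11, and cysteine-rich and wall-associated kinases 2 of 4, and none of these was 2-fold lower at 7 d. Jasmonate genes had 1 of 10 higher at 4 d and 1 of 10 lower at 7 d. The 11 measured root hair genes had medians of the opposite signs, -0.88 at 4 d and 1.04 at 7 d, and so had the 11 iron genes, at -0.30 and 1.09. The 14 genes of Mg2+ transport had medians of -0.18 and -0.07. Triterpene genes had 5 of 5 lower at 4 d and 4 of 5 lower at 7 d. At most 1 gene was 2-fold higher at 4 d, and at most 1 lower at 7 d, in each of the lists for heat shock (4 measured), the clock (14), abscisic acid (3), nitrate (7), phosphate (7), sulfate (6), low oxygen (10) and root tissue markers (8). Of the 8 shoot genes, 2 could be compared, and both were 2-fold lower in low Mg at 7 d.

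**Figure D2:**
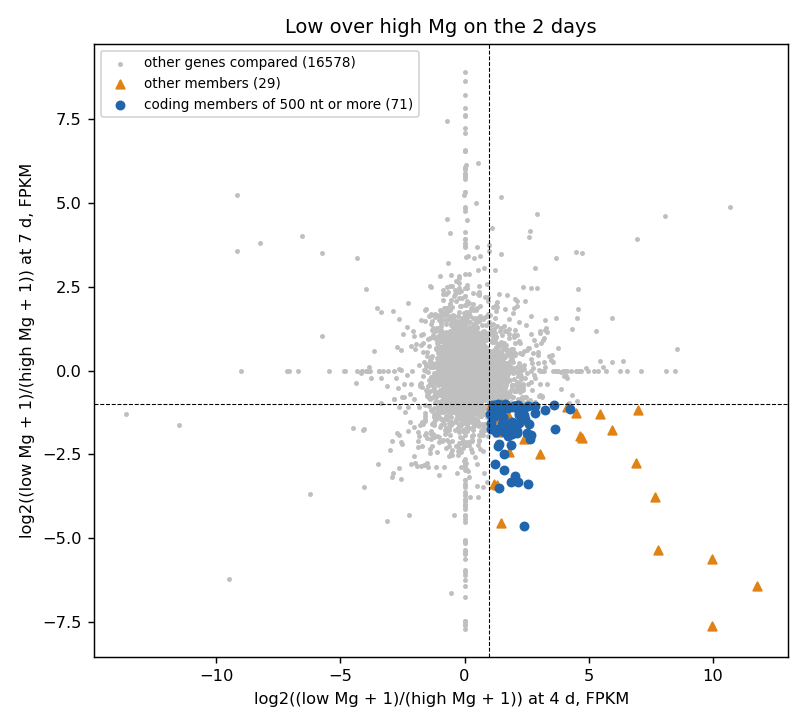
Log2 ratio of low to high Mg at 4 d (x axis) against that at 7 d (y axis), 1 point per gene compared; dashed lines are the limits of the rule. The 71 coding members of at least 500 nt (circles) lie within 4.25 of 0 at 4 d, and members past that at 4 d are all among the 29 other members (triangles).

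GSTF6, EXT4 and OSM34 are abundant members, of which only GSTF6 is on a list, that of camalexin and indole glucosinolate genes. GSTF6 (AT1G02930, chromosome 1, 661088 to 662475), a phi glutathione transferase also implicated in camalexin synthesis, had 715 and 74.0 FPKM in low and high Mg at 4 d, 489 FPKM in the control, and 79.0 and 181 FPKM in low and high Mg at 7 d. Its log2 ratio of 3.26 at 4 d was large beside the -1.18 at 7 d. The extensin gene EXT4 (AT1G76930), whose product cross-links in the wall, had 1086 and 448 FPKM in low and high Mg at 4 d, 1468 FPKM in the control, and 214 and 769.7 FPKM in low and high Mg at 7 d. OSM34 (AT4G11650), an osmotin of the thaumatin-like proteins, had 720.1 and 176 FPKM in low and high Mg at 4 d, 617 FPKM in the control, and 116 and 242 FPKM in low and high Mg at 7 d. These 3 stood on at least 617 estimated fragments in every Mg library.

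Class III peroxidases use hydrogen peroxide in the wall and can also produce it. PRXCB (AT3G49120), known from the apoplastic oxidative burst, had 118 and 45.3 FPKM in low and high Mg at 4 d, 112 FPKM in the control, and 13.4 and 67.1 FPKM in low and high Mg at 7 d. PER4 (AT1G14540) had 73.4 and 29.9 FPKM in low and high Mg at 4 d, 74.5 FPKM in the control, and 17.8 and 46.3 FPKM in low and high Mg at 7 d. In both the control was close to low Mg of 4 d. Among 52 peroxidase genes compared, these 2 are the members, 10 were 2-fold higher in low Mg at 4 d and 6 were 2-fold lower at 7 d. Over all genes compared these shares were 0.6%, 3.6% and 3.36%. Peroxidases were singled out after the values were seen.

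In a further set the control was close to high Mg of 4 d. BCS1 (AT3G50930), an ATPase of the outer mitochondrial membrane, had 45.8 and 13.9 FPKM in low and high Mg at 4 d, 12.1 FPKM in the control, and 7.14 and 16.7 FPKM in low and high Mg at 7 d. DIR5 (AT1G64160), a dirigent protein that steers the coupling of phenolic radicals, had 41.7 and 7.15 FPKM in low and high Mg at 4 d, 5.76 FPKM in the control, and 20.1 and 52.0 FPKM in low and high Mg at 7 d. The calmodulin-like gene CML38 (AT1G76650) had 39.4 and 9.55 FPKM in low and high Mg at 4 d, 7.26 FPKM in the control, and 5.18 and 12.0 FPKM in low and high Mg at 7 d. All 3 stood below high Mg of 4 d in the control, and low Mg of 4 d was between 1.84 and 2.66 above the control on the log2 scale.

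Other enzyme genes among the members had fewer fragments. HOL2 (AT2G43920), a methyltransferase, was lowest in low Mg at 7 d, at 0.845 FPKM against 17.5 FPKM in high Mg, a log2 ratio of -3.32 from about 6.95 fragments on the low side. At 4 d it had 15.0 FPKM in low Mg and 3.36 FPKM in high Mg. GAD4 (AT2G02010), a glutamate decarboxylase that makes the amino acid GABA, had 10.2 and 2.97 FPKM in low and high Mg at 4 d, 6.53 FPKM in the control, and 3.01 and 11.1 FPKM in low and high Mg at 7 d. The cytochrome P450 gene CYP71B9 (AT2G02580) ran in parallel, at 10.0 and 1.77 FPKM in low and high Mg at 4 d and 4.08 and 16.2 FPKM at 7 d. In HOL2, GAD4 and CYP71B9 high Mg at 7 d was the highest of the Mg libraries. PUB54, of the plant U-box proteins, had 7.23 and 0.929 FPKM in low and high Mg at 4 d, 7.13 FPKM in the control, and 0.990 and 5.94 FPKM in low and high Mg at 7 d. The blue copper protein gene BCB had 19.9 and 4.02 FPKM in low and high Mg at 4 d, 28.1 FPKM in the control, and 3.11 and 7.58 FPKM in low and high Mg at 7 d. The control was thus close to low Mg of 4 d in PUB54 and above it in BCB. The germin-like gene GER2 had ratios of 1.65 and -1.06. At17.1, annotated with plastid movement, had ratios of 1.38 and -1.22.

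Regulators and small signalling genes were mostly on none of the defence lists. LEP (AT5G13910), an AP2/ERF transcription factor gene, had 101 and 45.1 FPKM in low and high Mg at 4 d, 113 FPKM in the control, and 12.8 and 27.0 FPKM in low and high Mg at 7 d. RALFL18, a gene of the RALF peptides, had 18.9 and 8.23 FPKM in low and high Mg at 4 d and 22.1 FPKM in the control, and was listed at 0 in low Mg against 1.39 FPKM in high Mg at 7 d. LSU3, a gene of the sulfur-shortage response, had 8.91 and 1.48 FPKM in low and high Mg at 4 d and was listed at 0 in low Mg against 1.07 FPKM in high Mg at 7 d. For RALFL18 and LSU3 the 7-d difference thus rests on values near 1 FPKM in a single library.

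A further 21 coding members of at least 500 nt meet no naming rule, and those given here were named after their values were seen. AT1G78850, a mannose-binding lectin with an apple domain, had 1064 and 384 FPKM in low and high Mg at 4 d, 823 FPKM in the control, and 246 and 572 FPKM in low and high Mg at 7 d. As for OSM34, its highest library was low Mg of 4 d, followed by the control. AT1G53980, of the ubiquitin-like proteins, had 379 and 61.6 FPKM in low and high Mg at 4 d, 357 FPKM in the control, and 4.76 and 16.5 FPKM in low and high Mg at 7 d. Both of its 7-d values were thus below all of its 4-d values. AT5G26690, annotated with heavy metal transport, had 78.5 and 5.55 FPKM in low and high Mg at 4 d, 44.3 FPKM in the control, and 7.66 and 16.6 FPKM in low and high Mg at 7 d. AT3G47480, of the calcium-binding EF-hand proteins, had 14.6 and 1.19 FPKM in low and high Mg at 4 d, 23.5 FPKM in the control, and 0.966 and 3.74 FPKM in low and high Mg at 7 d. Ankyrin repeat genes, which encode protein-binding repeats, gave 2 members, AT1G34050 and AT2G24600. AT1G34050 had 14.4 and 4.22 FPKM in low and high Mg at 4 d and 2.65 and 8.69 FPKM at 7 d. AT2G24600 had 13.4 and 5.30 FPKM in low and high Mg at 4 d and 5.44 and 15.3 FPKM at 7 d. AT3G43840 rests on low Mg of 4 d, where it had 18.0 FPKM, against 1.23 FPKM in high Mg at 7 d and a listed 0 in the other libraries.

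Of the 100 members, 24 lie within 20 kb of another member, in 10 groups. The largest group holds 5 members on chromosome 5, from 21370499 to 21387714, all annotated as copper transport protein family. AT5G52720 had 83.3 and 12.1 FPKM in low and high Mg at 4 d, 30.9 FPKM in the control, and 14.8 and 58.4 FPKM in low and high Mg at 7 d. AT5G52710 had 34.3 and 9.58 FPKM in low and high Mg at 4 d, 9.55 FPKM in the control, and 22.8 and 90.2 FPKM in low and high Mg at 7 d. In AT5G52690, AT5G52700 and AT5G52760 the 4-d values were 3.38 to 12.8 FPKM in low Mg, 0.674 to 2.05 FPKM in high Mg and 0.286 to 3.29 FPKM in the control. Their 7-d values were 0.414 to 2.02 FPKM in low Mg and 7.93 to 24.6 FPKM in high Mg. Neighbours just outside the rule ran alongside: AT5G52750 had ratios of 2.16 and -0.96, AT5G52680 of 0.92 and -3.32, and AT5G52670 of 0.56 and -1.66. Of 9 genes with this annotation that could be compared anywhere in the genome, 5 are members and 7 were 2-fold lower in low Mg at 7 d. Over all genes compared these shares were 0.6% and 3.36%. AT5G52690, AT5G52700 and AT5G52760 passed 5 FPKM only in low Mg at 4 d or high Mg at 7 d, where the rule needs high values. AT5G52730, AT5G52740 and AT5G52770, of the same annotation, were listed at 0 in every Mg library and not compared. The annotation was singled out after the values were seen.

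On chromosome 4, from 10729966 to 10752028, lie 3 members annotated as glycosyl hydrolases with a chitinase insertion domain, a fold of chitin-cleaving enzymes. AT4G19750 had 69.0 and 22.1 FPKM in low and high Mg at 4 d, 7.17 FPKM in the control, and 56.6 and 447 FPKM in low and high Mg at 7 d. AT4G19760 had 107 and 27.7 FPKM in low and high Mg at 4 d, 7.93 FPKM in the control, and 71.5 and 208 FPKM in low and high Mg at 7 d. Among the coding members of at least 500 nt, these 2 had the control furthest below every Mg library. AT4G19720 had 34.3 and 11.1 FPKM in low and high Mg at 4 d, 10.4 FPKM in the control, and 16.6 and 44.8 FPKM in low and high Mg at 7 d. The remaining gene of this annotation that could be compared, ChiC (AT4G19810), missed the rule with ratios of 1.35 and -0.91. This annotation, too, was singled out after the values were seen.

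AT4G19750 and AT4G19760 lie on opposite strands, and their start regions are shown because they share a long identical stretch, which bears on how fragments could be assigned. Each sequence runs from 250 bases before to 50 bases after the annotated gene start in TAIR10.1, and capitals mark the longest run that both share, 80 bases that reach the end of the window.
AT4G19750, chr4:10747078-10747377, minus strand: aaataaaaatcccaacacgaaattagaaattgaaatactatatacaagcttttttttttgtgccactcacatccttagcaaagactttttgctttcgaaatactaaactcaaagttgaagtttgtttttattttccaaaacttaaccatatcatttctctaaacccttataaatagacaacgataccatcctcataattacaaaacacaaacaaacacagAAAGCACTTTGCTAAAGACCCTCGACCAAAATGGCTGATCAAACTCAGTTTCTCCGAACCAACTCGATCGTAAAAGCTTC
AT4G19760, chr4:10750131-10750430, plus strand: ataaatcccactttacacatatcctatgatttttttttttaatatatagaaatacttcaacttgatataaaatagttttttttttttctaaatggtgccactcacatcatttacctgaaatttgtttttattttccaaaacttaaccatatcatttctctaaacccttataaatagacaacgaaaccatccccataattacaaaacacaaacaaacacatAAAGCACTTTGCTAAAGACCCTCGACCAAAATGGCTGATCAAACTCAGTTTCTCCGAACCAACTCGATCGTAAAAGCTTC
Over the whole gene spans the longest shared run was 134 bases, so short reads from one gene can match the other and the split of FPKM between them is uncertain. For the other neighbouring pairs examined the longest shared run was 21 to 35 bases, the longest between AT5G52690 and AT5G52700.

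A pair of mannose-binding lectin genes on chromosome 1, AT1G52120 and AT1G52130, was at or below 1.01 FPKM in 3 libraries. AT1G52130 had 9.64 and 0.830 FPKM in low and high Mg at 4 d, 0.935 FPKM in the control, and 1.01 and 20.0 FPKM in low and high Mg at 7 d. AT1G52120 had 5.76 and 0.536 FPKM in low and high Mg at 4 d, 0.181 FPKM in the control, and 0.0917 and 10.0 FPKM in low and high Mg at 7 d. Both thus passed 5 FPKM in low Mg of 4 d and in high Mg of 7 d, and in no other library. AT5G49850, of the same annotation and named after its values were seen, had 12.6 and 3.55 FPKM in low and high Mg at 4 d and 2.51 and 18.8 FPKM at 7 d. With AT1G52120 and AT1G52130 it makes 3 members of 21 such genes compared, whose median ratios were 0.07 at 4 d and -0.31 at 7 d. Of all genes compared, 0.6% are members. The lectin annotation was also singled out after the values were seen. Elsewhere on chromosome 1 the lectin genes AT1G52060 and AT1G52070 went the other way at 4 d, at -1.34 and -1.36.

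In a pair on chromosome 2 the lowest library was a different one for each gene. AT2G30670, a Rossmann-fold protein gene, had 30.7 and 5.08 FPKM in low and high Mg at 4 d, 19.6 FPKM in the control, and 2.58 and 87.4 FPKM in low and high Mg at 7 d. Its 7-d ratio of -4.63 was the lowest of the coding members of at least 500 nt. AT2G30660, annotated as a Clp protease or crotonase, had 25.2 and 1.12 FPKM in low and high Mg at 4 d, 42.3 FPKM in the control, and 5.80 and 21.8 FPKM in low and high Mg at 7 d.

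Adjacent on chromosome 3, AT3G21351 and AT3G21352 encode uncharacterized proteins. AT3G21352 had 321 and 85.3 FPKM in low and high Mg at 4 d, 501 FPKM in the control, and 23.9 and 91.2 FPKM in low and high Mg at 7 d. AT3G21351 had 108 and 43.1 FPKM in low and high Mg at 4 d, 162 FPKM in the control, and 10.5 and 37.4 FPKM in low and high Mg at 7 d. The remaining groups are pairs: AT3G28580, an ATPase-like gene with ratios of 2.21 and -1.31, with the short AT3G28590; AT1G06135 with the short AT1G06137; AT5G22530, at 1.08 and 6.61 FPKM in low and high Mg at 7 d, with AT5G22555, at 53.5 and 138 FPKM; GSTF6 with the non-coding AT1G02952; and LEP with MIR848.

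**Figure D3:**
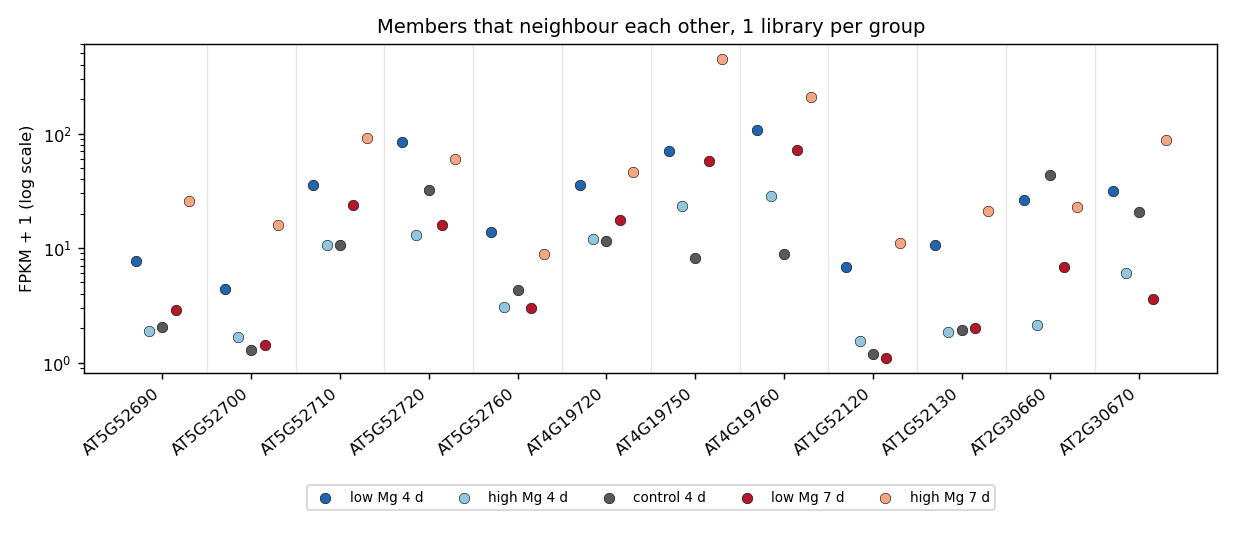
FPKM plus 1, on a log scale, of 12 members that neighbour each other on chromosomes 5, 4, 1 and 2, in the 5 libraries; each point is 1 library, with no error. High Mg at 7 d is the highest point in 9 of the 12, the exceptions being AT5G52720, AT5G52760 and AT2G30660, and the control lies furthest below the others in AT4G19750 and AT4G19760.

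Short loci made up much of the membership. An exon length under 500 nt was found in 29 members (29%), against 2.41% of the compared genes with an annotated length, and the median exon length was 756 nt for members and 1692 nt for the genes compared. These 29 are 21 coding genes, 3 miRNA precursors, 3 snoRNAs, 1 lncRNA and 1 transcribed pseudogene. For such loci few fragments already give a large FPKM. Of the 29, 22 were listed at 0 in at least one library, against 5 of the 71 coding members of at least 500 nt. SNOR108 was listed at 3496 FPKM in low Mg at 4 d, at 84.6 FPKM in high Mg at 7 d and at 0 elsewhere, and MIR779 at 118 FPKM and 5.79 FPKM in the same libraries and 0 elsewhere. Among the short coding genes, CLE3, which encodes a signalling peptide, had 123 and 48.1 FPKM in low and high Mg at 4 d and 22.2 FPKM in the control, and at 7 d was listed at 0 in low Mg and had 2.55 FPKM in high Mg. SMR5 (AT1G07500), a cyclin-dependent kinase inhibitor gene, had 43.3 FPKM in low Mg and was listed at 0 in high Mg at 4 d, with 16.7 FPKM in the control, and 15.0 and 38.5 FPKM in low and high Mg at 7 d. SNOR108, MIR779, CLE3 and SMR5 were named after their values were seen. Of all 100 members, 29 are annotated as uncharacterized proteins, against 1012 of the genes compared. The counts that follow are for the 71 coding members of at least 500 nt, 0.445% of such genes compared. Their median log2 ratios were 1.77 at 4 d and -1.38 at 7 d, the furthest from 0 being 4.25 and -4.63. Of the 71, 70 stood on 10 or more estimated fragments in low Mg of 4 d and in high Mg of 7 d alike, and 53 on 50 or more.

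The control was not used by the rule, although both ratios to it contain a library that was. Over all genes compared, the median log2 ratios to the control were -0.01 for low Mg and 0.00 for high Mg of 4 d. For the 4 measured heat shock genes they were -2.86 and -3.75, so this single library stood apart from both in some genes. The part of that in the members was not tested. Of the 71, the control was above low Mg of 4 d in 20, between the Mg levels but nearer low Mg in 21, between them but nearer high Mg in 16, below high Mg in 13 and equal to it in 1. The control therefore lay on the low Mg side in 57.7% of these members. On the same measure it lay there in 64.9% of the 433 other coding genes that were 2-fold higher in low Mg at 4 d, and in 56.3% of all coding genes compared. In the 57 coding genes that were 2-fold higher in low Mg on both days the share was 75.4%. Under the rescaling to the nuclear sum the share in the 71 was 32.4%, so the side of the control depends on that choice. With a rescaling to coding genes of at least 500 nt alone it stayed at 57.7%.

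Against the control, low Mg of 4 d was 2-fold higher in 25 of the 71, where 1.81% of coding genes compared were, and high Mg of 4 d was 2-fold lower in 39, where 2.81% were. The 4-d ratio of low to high Mg was fixed by the rule, so these counts are read as a description only. The median log2 ratio to the control was 0.57 for low Mg and -1.09 for high Mg, and that of high Mg turned to 0.03 under the nuclear rescaling, which moves the median of all genes in that comparison by 1.02. At the ends, AT1G29100, a heavy metal transport gene, had 86.8 and 24.8 FPKM in low and high Mg at 4 d beside 225 FPKM in the control, and AT1G53620 had 13.7 and 1.08 FPKM beside 26.0 FPKM. After AT4G19760 and AT4G19750, the control was furthest below the others in AT5G44400, a berberine bridge enzyme-like gene, at 12.4 and 5.14 FPKM in low and high Mg at 4 d and 3.95 FPKM in the control.

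**Figure D4:**
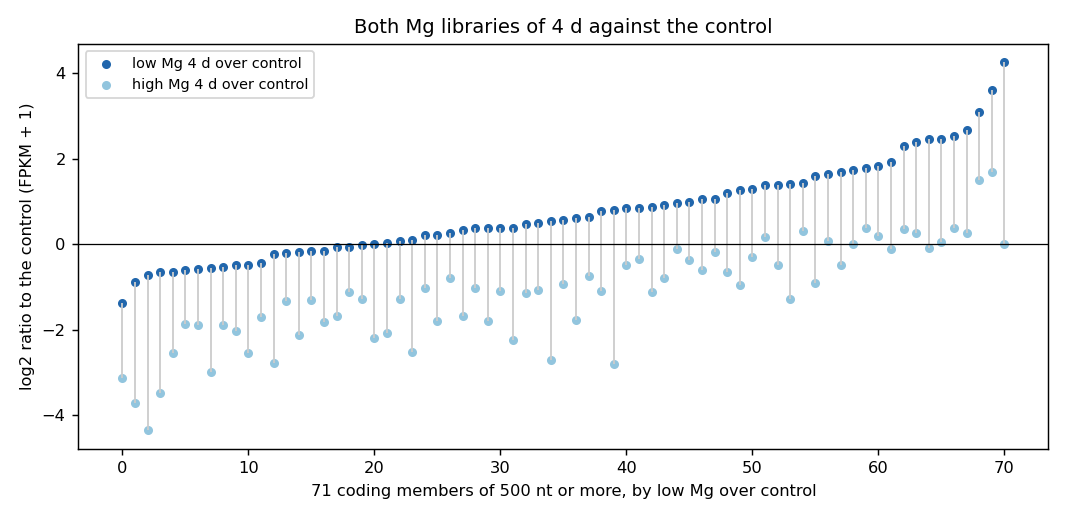
Log2 ratio to the control (FPKM plus 1) of low Mg at 4 d (dark) and high Mg at 4 d (light) for the 71 coding members of at least 500 nt, ordered by low Mg over control; a line joins the points of a gene. As deposited, the control (0) is above both points in 20 genes and below both in 13, and it is nearer low Mg in 57.7% of genes, against 32.4% after the nuclear rescaling.

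The turn between the days was seen at both Mg levels. In low Mg all 71 were lower at 7 d than at 4 d, 64 of them 2-fold or more, where 11.9% of coding genes compared were, and the median log2 ratio of 7 d to 4 d was -2.32. In high Mg 60 of the 71 were higher at 7 d than at 4 d, 39 of them 2-fold or more, where 3.85% were, with a median of 1.16. The rule used all 4 of these libraries, so these counts are a description. The 14 clock genes had log2 ratios of 7 d to 4 d from -4.29 (ELF4) to 7.57 (CCA1) in low Mg. In high Mg they ran from -5.95 (ELF4) to 7.78 (CCA1). CCA1 had 0.201 and 0.172 FPKM in low and high Mg at 4 d, and 228 and 256 FPKM at 7 d. The ratios between days thus hold differences in clock state, whose part in the members was not tested. The nuclear rescaling puts the median of all genes at 1.74 for 7 d over 4 d in low Mg and 1.17 in high Mg. On that scale 51 of the 71 were lower at 7 d in low Mg, with a median of -0.37, and 67 were higher at 7 d in high Mg, with a median of 2.04. The median level of the 71 was 4.07 FPKM in low Mg at 7 d and 18.9 FPKM in low Mg at 4 d, and 15.9 FPKM in high Mg at 7 d and 5.14 FPKM in high Mg at 4 d. It was 10.3 FPKM in the control. Low Mg at 4 d was the highest of the 5 libraries in 32 members, high Mg at 7 d in 20 and the control in 19. Low Mg at 7 d was alone the lowest in 45, and tied for lowest at a listed 0 in AT3G43840. In 21 members high Mg at 7 d passed low Mg at 4 d, among them AT4G19750, AT2G30670, WRKY62 and DIR5. The 11 that were lower at 7 d in high Mg include AT1G29100, at 4.84 FPKM at 7 d against 24.8 FPKM at 4 d.

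As deposited, the median ratio of 7 d to 4 d of the 71 members was thus further from 0 in low Mg (-2.32) than in high Mg (1.16). For the 35 coding genes of the mirror pattern, 2-fold lower in low than in high Mg at 4 d and 2-fold higher at 7 d, it was 0.83 in low Mg and -2.14 in high Mg. Under the nuclear rescaling the medians of the 71 were -0.37 in low Mg and 2.04 in high Mg. Which Mg level lay further from 0 thus depends on that choice, and for the mirror genes only the deposited scale is given. The difference between the members and the mirror genes was not tested.

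Across the 71 members, the W-box core was found on either strand in 64.8%, against 52.0% of the promoters compared, and 2 or more copies in 39.4% against 18.7%. Among the genes that met only 1 condition, 2 or more copies were found in 34.9% of those higher at 4 d and 21.7% of those lower at 7 d, both below the share of the members. The longer forms TTGACC or TTGACT, each of which contains the core, occurred in 47.9% against 33.7%. In the 433 other coding genes 2-fold higher in low Mg at 4 d the core was found in 68.1% and the longer forms in 54.0%. In the 359 others 2-fold lower at 7 d they were found in 56.0% and 38.7%. For at least 1 core and for the longer forms, the shares of the members lay between those of the genes that met only 1 condition. The as-1 core TGACG, which can overlap the W-box core by 4 letters, was found in 14.1% against 23.62%. Shares within 5 percentage points of the background were seen for the G-box CACGTG, the GCC-box GCCGCC, the DRE core CCGAC, the heat element GAANNTTC and the evening element AAATATCT. The CGCG-box ACGCGT was also within 5 points, at 7.04% (5 promoters) against 2.29%. The palindrome TGACGTCA was singled out after the promoters of NIMIN-2, DLO1 and WRKY51 were seen. It occurs in 3 of the 71 members (4.23%), these same 3, and in 0.671% of 15953 coding promoters of the genes compared. The promoters of ICS1, FMO1, NIMIN1 and NIMIN-3 hold no W-box core in this window, which says only that these letters are not in these 300 bases. A match is a string of letters, and binding was not measured.

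**Figure D5:**
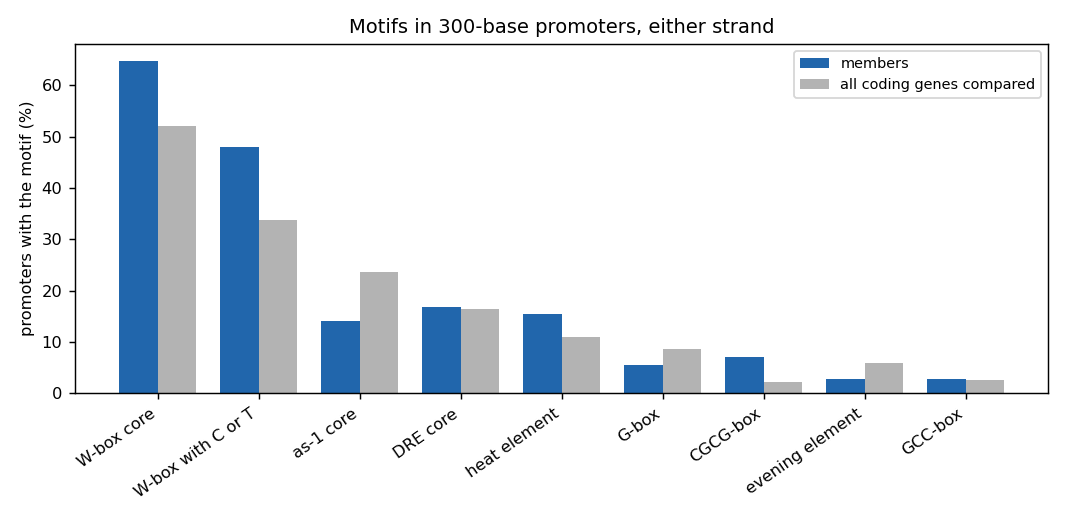
Share of 300-base promoters that hold each motif on either strand, for the 71 coding members of at least 500 nt (left bars) and the 15953 coding genes compared (right bars). The W-box core is found in 64.8% of members against 52.0%, and the as-1 core in 14.1% against 23.62%.

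At the limits of the rule the genes differ little. Just inside the 4-d limit were NIMIN-3 at 1.04 and WRKY62 at 1.06, and just outside it AT1G19960 at 0.99 and AT4G15120 at 0.98. Just inside the 7-d limit were AT5G02550, at 16.7 and 34.4 FPKM in low and high Mg, and the snoRNA AT4G39361, at 126 and 253 FPKM. Just outside it were TOM20-1 and ARFD1A, both at -0.99. A further 13 loci met both ratios with less than 5 FPKM in every Mg library, the highest of them at 4.87 FPKM, and the lowest peak value of a member was 5.07 FPKM.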

How the data were processed

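RNA-seq of 5 root libraries, 1 per group, gave 1 FPKM value per locus. The authors deposited FPKM for every library; no label names the unit, which was taken from the values and from Cufflinks 2.1.1, named with TopHat2 2.0.8 for the 4-d libraries per the submitters' processing notes. Those notes give the genome as TAIR10, and for the 7-d libraries neither aligner nor counting tool is named: not given in the sources used here. Ratios were log2((a + 1)/(b + 1)) in FPKM, over nuclear loci with at least 5 FPKM in a Mg library, and a 2-fold limit was used. With 1 library per group no test was run.

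Fragments were estimated by dividing each FPKM by the value 1 fragment would have. That value came from the median of the lowest non-zero products of FPKM and exon length, over coding genes of 2000 nt or more. Depth is thus an estimate, and fragments without molecular identifiers are not independent molecules. Biotypes, lengths, positions and sequences are those of the RefSeq annotation of TAIR10.1, in which all 100 members were found. Of 289 entries in 23 gene lists, 5 were not paired with a locus. Members and lists were chosen with earlier results of these data known. Genes were named where they were coding members of at least 500 nt with a symbol (the 25 with the largest smaller ratio), members of a list, members next to a limit of the rule, members within 20 kb of another, or members with the control furthest above or below the rest (3 each). Python 3.11.15, pandas 2.3.3, numpy 2.4.6 and matplotlib 3.10.9 were used. The selection was also run on simulated counts for coding genes of at least 500 nt. Only counting noise was simulated, so the run does not cover variation between libraries or the shorter members.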

Additional observations from a re-analysis of the deposited data

Results flagged for a closer look

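In all 100 members the ratio of low to high Mg ran one way at 4 d and the other way at 7 d. This is what the rule chose them for, and the difference between the days was not tested, with 1 library per group.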

How the results depend on the processing

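The membership depends on the settings, and all counts are for the members found under each. As reported, 100 members had median log2 ratios to the control of 0.80 (low Mg) and -0.98 (high Mg), with 42 at 2-fold above the control in low Mg, 50 at 2-fold below it in high Mg and 43 with the control between. With 0.1 FPKM added, 81 lay below in high Mg and 73 had the control between. With 5 FPKM added, 42 members remained, of which 21 lay above, 17 below and 17 had the control between. With a filter of 20 FPKM, 60 remained, with 27 above, 31 below and 22 between. Rescaled to the nuclear sum, 41 genes met the rule, 35 of them among the 100, with medians of 1.37 in low Mg and 0 in high Mg, 13 below and 14 between. Among the coding genes of at least 500 nt, 25 lay above. At 1.5-fold, 291 genes met the rule, with a low Mg median of 0.34, 77 above, 128 below and 156 between. No filter gave 113 members, centring the ratios 102 and rescaling to the coding genes, chosen after seeing the data, 125, of which 99 were shared in each of the last 2 cases. The 52 ratios of low to high Mg of 26 named genes were recomputed under 9 alternatives, with 26 ratios left by the filter of 20 FPKM and 44 under the nuclear rescaling, and none of those recomputed reversed. A ratio past the 2-fold limit of the rule could not reverse under these settings, so that outcome was fixed in advance. Beyond their counting interval moved 17 of 52 with 5 FPKM added and 23 of 44 under the nuclear rescaling. Leaving out a library was not possible, with 1 per group. No paired analysis was possible because each group has 1 library. The cause of these shifts was not tested. Low values in low Mg at 7 d rest on 6.59 M estimated fragments.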

Other observations

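Among the short members, AT5G24879 and AT5G66607 were both listed at 992 FPKM in low Mg at 4 d. Both were listed at 0 in high Mg at 4 d, in the control and in low Mg at 7 d, and at 7 d in high Mg they had 48.4 and 193 FPKM. Their exon lengths in TAIR10.1 are 114 and 326 nt, so the same FPKM would not come from equal numbers of fragments over these lengths. AT1G02952, a non-coding neighbour of GSTF6, had the reverse order of days, with 9.22 and 19.7 FPKM in low and high Mg at 7 d, while none of its 4-d values passed the 1.43 FPKM of the control.

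The precursor of miR159b, a microRNA family that targets MYB factors, was listed at 126 FPKM in low Mg and 0 in high Mg at 4 d, at 71.2 FPKM in the control, and at 5.80 and 14.2 FPKM in low and high Mg at 7 d. The FPKM of a precursor locus does not measure the mature microRNA.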
